A study of Mus musculus with 27 samples.

Results

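The 10 genes described here, Adipoq, Plin1, Fabp4, Cidec, Lep, Retn, Pparg, Cfd, Scd1 and Plin4, are known for their expression in adipocytes. They were taken by symbol from a table of 54532 genes, and each symbol matched 1 gene. Poly(A) RNA of 27 tibialis anterior muscles was sequenced, without injury or after volumetric muscle loss (VML), an injury in which part of the muscle is cut out, here 40% of the tibialis anterior. The mice were C57BL/6 males, operated at an age of 8 weeks. Muscles without injury (n = 5) were compared with muscles taken 3 days (n = 5), 7 days (n = 6), 14 days (n = 6) and 21 days (n = 5) after VML. The strain was the same in all groups, and the labels name no transgene or drug. The deposited design has the excision on 1 side and the study's methods have it on both sides. Neither says whether 2 muscles came from the same mouse. The tests took every muscle as independent and set differences against the spread between muscles. If 2 muscles came from the same mouse, the p-values may be too small.

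White adipocytes keep triacylglycerol in a large lipid droplet, coated by perilipin and enlarged by CIDE proteins, and secrete hormones called adipokines. PPARγ, together with C/EBP factors, turns on these genes when a precursor becomes an adipocyte. Skeletal muscle holds few adipocytes, most of them between the fibre bundles, and its fibro-adipogenic progenitors can form more of them after an injury. Some of these genes are also active in other cells, Fabp4 in capillary endothelium and macrophages, Plin4 in muscle fibres, and Pparg in macrophages. In a bulk sample, fewer cells of a type and less RNA per cell cannot be told apart.

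The promoters of 4 of these genes hold the 8-letter palindrome TTGNNCAA, the core of the sequence that C/EBP factors bind. They are printed here because C/EBP factors act on adipocyte genes. Each is the RefSeq sequence on GRCm38.p6 from 250 bases before to 50 bases after an annotated transcript start, in 5′ to 3′ direction of the gene, with the palindrome in capitals.
Adipoq, chr16:23146286-23146585, + strand: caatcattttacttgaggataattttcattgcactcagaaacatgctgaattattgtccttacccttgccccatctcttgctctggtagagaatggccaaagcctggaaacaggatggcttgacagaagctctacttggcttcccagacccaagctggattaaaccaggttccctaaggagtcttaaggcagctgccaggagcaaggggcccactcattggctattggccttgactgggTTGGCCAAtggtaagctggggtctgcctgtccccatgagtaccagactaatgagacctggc
Plin1, chr7:79732727-79733026, - strand: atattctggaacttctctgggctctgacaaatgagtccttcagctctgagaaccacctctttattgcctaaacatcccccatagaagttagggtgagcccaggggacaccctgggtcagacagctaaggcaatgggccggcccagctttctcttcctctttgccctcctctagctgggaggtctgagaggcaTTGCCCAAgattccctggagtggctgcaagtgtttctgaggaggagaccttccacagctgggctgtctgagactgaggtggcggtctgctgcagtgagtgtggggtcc
Cidec, chr6:113434715-113435014, - strand: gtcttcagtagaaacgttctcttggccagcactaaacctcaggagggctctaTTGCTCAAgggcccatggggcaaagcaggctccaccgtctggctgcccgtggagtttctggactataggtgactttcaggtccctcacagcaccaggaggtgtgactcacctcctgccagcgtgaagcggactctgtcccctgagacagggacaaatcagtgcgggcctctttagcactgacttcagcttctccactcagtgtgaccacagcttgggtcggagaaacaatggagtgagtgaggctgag
Lep, chr6:29059971-29060270, + strand: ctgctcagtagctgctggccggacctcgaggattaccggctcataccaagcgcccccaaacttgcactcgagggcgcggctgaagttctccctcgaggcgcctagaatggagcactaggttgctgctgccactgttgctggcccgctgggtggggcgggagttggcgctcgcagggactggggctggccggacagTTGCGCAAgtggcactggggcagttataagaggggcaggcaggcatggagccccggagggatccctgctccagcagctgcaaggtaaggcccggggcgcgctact
The palindrome begins at position -11 from the start in Adipoq, -58 in Plin1, -198 in Cidec (the second of its annotated starts) and -55 in Lep. Of the 10 genes, 8 were found in the promoter table, with 11 starts, and 4 of these 11 windows hold the palindrome, against 6.40% of the 32851 mouse promoters of the same length. The windows of Retn, Pparg, Cfd and Plin4 and the first of Cidec do not hold it. The nuclear receptor element AGGTCA, searched on both strands, lies in 2 of the 11 windows, both of Pparg, against 16.3% of all promoters. A direct repeat of this element with 1 base between its parts, the form that PPARγ binds, lies in 0 of the 11 windows and in 0.381% of all promoters, and TATAAA lies in 1 window of Pparg, against 13.6%. These matches describe letters in a window and were not tested for binding.

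The unit of all levels is FPKM, fragments scaled for gene length and for the size of the library, so that levels of different genes can be compared. The libraries held 14376395 to 24436763 reads on genes (median 17398586), and the totals by which the deposited FPKM had been divided ranged from 0.747 to 1.48 of these sums (on average 0.782 without injury and 1.25, 1.18, 1.04 and 0.897 after 3, 7, 14 and 21 days). Muscle fibre genes were abundant in every library, as the tissue label says (summed level of Acta1, Ckm, Myh4, Mylpf, Pvalb and Tnnt3 of at least 20843 FPKM). Over all genes, 9 of the 27 libraries lay nearer to the mean of another group than to that of their own. Among them, day 3 replicate 5 was nearest to day 7 and day 7 replicate 5 to day 3, while day 7 replicates 3 and 6 were nearest to no injury and day 21. Results are also given without day 3 replicate 5 and day 7 replicate 5 where they differ. Rescaling FPKM to a common sum in each library moved the median log2 fold change of all genes against no injury from between 0.012 and 0.028 to 0.51 (day 3), 0.48 (day 7), 0.29 (day 14) and 0.12 (day 21). The genes called then went from 3417 higher and 2899 lower to 6868 and 322 (day 3), from 2189 and 2107 to 6304 and 209 (day 7), from 1320 and 1649 to 1678 and 107 (day 14), and from 255 and 247 to 42 and 7 (day 21).

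Adipocyte genes were mainly higher at day 7. Against uninjured muscle, 6 of the 9 genes tested were higher at day 7, Scd1, Cfd, Adipoq, Cidec, Plin1 and Pparg, and 0 were lower, where 15% of all 14630 genes tested were higher and 14.4% lower (adjusted p under 0.05, limma). At day 3, Pparg was higher and Plin4 lower, beside 23.4% and 19.8% of all genes. At day 14, 2 were higher, Scd1 and Pparg, beside 9.02% of all genes, and 0 were lower, beside 11.3%. At day 21, limma called 0 of the 9 genes, beside 1.74% of all genes higher and 1.69% lower; Pparg and Scd1 had an unadjusted p under 0.05, and voom also called 0. Lep, at most 0.641 FPKM, did not pass the filter on low values (5 or more samples with an FPKM of 0.5 or more). The median log2 fold change of the 9 genes, on the scale of log2(FPKM + 1) on which all fold changes of the fit are given, was -0.031 (day 3), 1.17 (day 7), 0.53 (day 14) and 0.36 (day 21), where that of all genes tested lay between 0.012 and 0.028. With voom, which weights the reads recovered from FPKM by their precision, 2 of the 9 genes were called at day 7, Pparg and Scd1, beside 14.2% of all genes called higher. Without day 3 replicate 5 and day 7 replicate 5, 7 were called at day 7, the 6 above and Retn, beside 12.4% of all genes called higher.

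**Figure D1:**
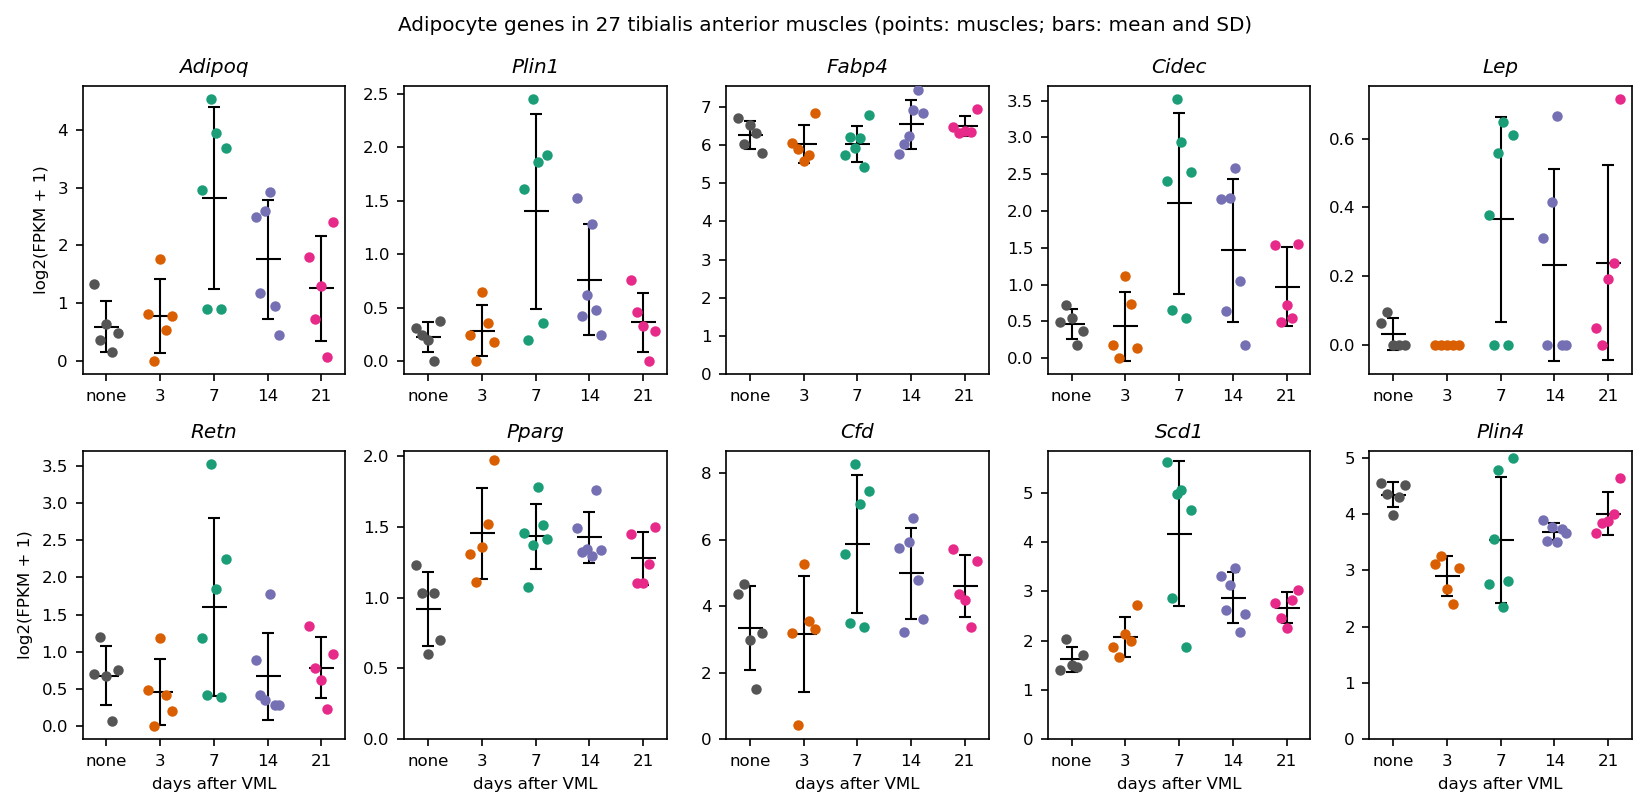
Level of each gene in each muscle, as log2(FPKM + 1), without injury (none) and at 3, 7, 14 and 21 days after VML (points are muscles, bars the mean and SD of 5, 5, 6, 6 and 5 muscles). At day 7, 4 of the 6 muscles lie above every uninjured muscle for Adipoq, Plin1, Cidec, Lep and Cfd, while Fabp4 overlaps between all groups.

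Plin1 (chr7:79720218-79732903, - strand of GRCm38, as are all gene positions) encodes perilipin 1, the main coat protein of the adipocyte droplet. Its level was 0.242, 0.187, 0.147, 0 and 0.294 FPKM in the 5 muscles without injury and 0.186, 0, 0.563, 0.283 and 0.131 FPKM at day 3. At day 7 it was 0.144 to 4.46 FPKM (median 2.34), with 15 to 353 reads per library. Plin1 was thus near its detection limit before injury, and 4 of the 6 muscles at day 7 lay above all uninjured ones. The mean was 11.8-fold that without injury at day 7 (log2 fold change 1.17, SE 0.30, adjusted p = 0.00551). At day 14 it was 0.182 to 1.88 FPKM (median 0.464) and 4.56-fold the uninjured mean, which did not pass the test (adjusted p = 0.209). At day 21 the values were 0.688, 0.372, 0.257, 0 and 0.212 FPKM, again mostly within the uninjured range. With voom the change at day 7 was larger and did not pass (3.08, adjusted p = 0.112).

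Cidec (chr6:113424634-113435760, - strand) encodes a protein that lets lipid droplets grow by moving lipid from a smaller to a larger one. It was 0.405, 0.657, 0.459, 0.131 and 0.294 FPKM without injury and 0.129, 0, 1.16, 0.662 and 0.101 FPKM at day 3. At day 7 it was 0.464 to 10.5 FPKM (median 4.56), and at day 14 it was 0.137 to 4.98 FPKM (median 2.27). At both times 4 of the 6 muscles lay above every uninjured muscle. The mean was 11.7-fold the uninjured mean at day 7 (log2 fold change 1.64, SE 0.46, adjusted p = 0.00914) and 5.87-fold at day 14 (1.0, SE 0.46, adjusted p = 0.118; 1.26, adjusted p = 0.0487, without day 14 replicate 6). At day 21, replicates 1 and 5 stood at 1.92 and 1.93 FPKM and the other 3 between 0.405 and 0.643 FPKM. With voom the log2 fold change at day 7 was 2.60 (adjusted p = 0.129).

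Plin4 (chr17:56100591-56109803, - strand), a perilipin of small droplets that muscle fibres also express, was the only 1 of the 9 genes tested that was called lower at any time after VML. It was 22.4, 19.5, 14.9, 18.8 and 21.9 FPKM without injury and 7.60, 8.58, 5.37, 4.29 and 7.22 FPKM at day 3. Every muscle at day 3 lay below every uninjured muscle, and the log2 fold change was -1.45 (SE 0.35, adjusted p = 0.00164), and -0.70 (adjusted p = 0.0298) with FPKM rescaled to a common sum. The 6 muscle fibre genes above fell at day 3 as well, all 6 passing the test, beside 19.8% of all genes called lower. Their summed level was 20843 to 62113 FPKM against 82213 to 97542 FPKM without injury. The part of muscle fibres in the level of Plin4 was not tested. At day 7, Plin4 divided into 4 muscles between 4.07 and 10.8 FPKM, below every uninjured muscle, and replicates 3 and 6 at 26.6 and 30.8 FPKM, above every uninjured muscle. Replicates 3 and 6 also had the highest muscle fibre sums of that day, 98786 and 90113 FPKM, against 26404 to 55103 FPKM in the others. The difference at day 7 did not pass (-0.80, SE 0.33, adjusted p = 0.0712); without replicate 3 it was -1.05 and without replicate 6 it was -1.09, and either then passed. At day 14 all 6 muscles, at 10.4 to 13.9 FPKM, lay below the lowest uninjured one, yet the fitted change did not pass (-0.66, adjusted p = 0.161), and a fit of these 2 groups alone gave adjusted p = 0.00325. At day 21 the values were 11.6, 13.3, 13.7, 15.1 and 24 FPKM. The exons of Plin4 share 17 bases with those of Hdgfl2 on the other strand, and the library was not directional.

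Adipoq (chr16:23146536-23158028, + strand) encodes adiponectin, a hormone made almost only by adipocytes. Without injury it was 1.52, 0.295, 0.555, 0.118 and 0.396 FPKM, from 2 to 28 reads, and at day 3 it was 0.763, 0, 2.39, 0.445 and 0.715 FPKM. At day 7 it was 0.871 to 22.1 FPKM (median 9.37) and at day 14 it was 0.369 to 6.54 FPKM (median 2.93). The 6 muscles at day 7 fell into 4 at 6.82, 11.9, 14.4 and 22.1 FPKM, all above the highest uninjured level, and replicates 2 and 5 at 0.871 and 0.873 FPKM, within the uninjured range. The mean at day 7 was 16.5-fold that without injury (log2 fold change 2.23, SE 0.58, adjusted p = 0.00596). It was 5.42-fold at day 14 (1.17, SE 0.58, adjusted p = 0.152) and 3.1-fold at day 21 (0.66, SE 0.60, adjusted p = 0.581), and neither passed. At day 21 the values were 2.49, 0.653, 1.47, 0.0482 and 4.28 FPKM, with 2 muscles above all uninjured ones and 1 below them all. With voom the change at day 7 was 3.28 (adjusted p = 0.109), and without day 3 replicate 5 and day 7 replicate 5 it was 2.61 (adjusted p = 0.00245).

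Cfd (chr10:79890853-79892655, + strand) encodes adipsin, the complement factor D that adipocytes secrete, and reached the highest levels of the 4 adipokines. It was 19.8, 24.3, 6.84, 1.85 and 8.08 FPKM without injury and 8.16, 0.332, 37.9, 10.8 and 8.97 FPKM at day 3. It reached 9.25 to 309 FPKM at day 7 (median 89.9), from 212 to 4859 reads. The uninjured muscles alone differed by more than 10-fold, and again replicates 2 and 5 at day 7, at 10.2 and 9.25 FPKM, stayed within their range. The mean at day 7 was 9.35-fold that without injury (log2 fold change 2.53, SE 0.87, adjusted p = 0.0306). This call was lost without a filter on low values (adjusted p = 0.0756), with only these 2 groups in the fit (0.0681), with voom (0.0620), with sample quality weights (0.0668) and without any 1 of 6 libraries (no injury replicate 3, 4 or 5, or day 7 replicate 3, 4 or 6; up to 0.0954). At day 14 Cfd was 8.38 to 99.6 FPKM (median 39.5, log2 fold change 1.65, adjusted p = 0.180) and at day 21 it was 51.1, 19.5, 17.2, 9.46 and 40.2 FPKM (1.26, adjusted p = 0.462).

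Retn (chr8:3655770-3660110, + strand) encodes resistin, which mouse adipocytes secrete. It was 0.618, 1.29, 0.594, 0.0514 and 0.692 FPKM without injury and 0.395, 0, 1.27, 0.334 and 0.149 FPKM at day 3. At day 7 Retn was 0.309 to 10.5 FPKM (median 1.92), with the highest value in replicate 3. The mean was 4.82-fold the uninjured mean, but the fitted difference did not pass (log2 fold change 0.92, 95% interval 0.098 to 1.75, adjusted p = 0.0828). It passed without day 7 replicate 5 (1.17, adjusted p = 0.0366 when day 3 replicate 5 was left out as well), without replicate 2 (1.16, adjusted p = 0.0308) and with the common sum (1.2, adjusted p = 0.0171). At day 14 Retn was 0.215 to 2.43 FPKM (median 0.301), and at day 21 it was 1.54, 0.714, 0.529, 0.169 and 0.964 FPKM, both overlapping with the uninjured muscles.

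Lep (chr6:29060220-29073877, + strand) encodes leptin, the hormone that reports fat stores to the brain. It was listed at 0 in all 5 muscles at day 3 and in 3 of 5 without injury, where the other 2 held 2 and 4 reads (0.0448 and 0.0693 FPKM). A count of 0 allows a level of up to 0.0257 to 0.0762 FPKM, depending on which of the libraries at 0 it was (3 reads, counting error only). At day 7, 4 muscles had 0.300, 0.473, 0.567 and 0.526 FPKM, from 22 to 43 reads, and replicates 2 and 5 were at 0. At day 14, replicates 1, 3 and 4 had 0.241, 0.334 and 0.587 FPKM and the other 3 were at 0, and at day 21 the values were 0.0353, 0, 0.142, 0.179 and 0.641 FPKM. Lep was thus detected above 10 reads only in muscles after day 3, in 4 at day 7, 3 at day 14 and 1 at day 21. In a two-sided exact permutation test the difference in mean log2(FPKM + 1) from no injury was -0.032 (day 3, p = 0.444), 0.33 (day 7, p = 0.0606, 462 divisions, smallest possible p 0.00216), 0.20 (day 14, p = 0.182) and 0.21 (day 21, p = 0.119), and between day 7 and day 3 it was 0.37 (p = 0.0606).

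Pparg (chr6:115360951-115490399, + strand) encodes PPARγ, the nuclear receptor that drives adipocyte formation. It was 1.35, 1.04, 0.519, 1.05 and 0.625 FPKM without injury, from 18 to 53 reads. At day 3 it was 1.48, 1.16, 1.57, 1.87 and 2.91 FPKM, at day 7 from 1.10 to 2.44 FPKM (median 1.70), and at day 14 from 1.45 to 2.39 FPKM (median 1.53). Pparg was higher already at day 3 and had nearly equal changes at 3 times, and all 6 muscles at day 14 lay above every uninjured one. The log2 fold change was 0.53 at day 3 (SE 0.15, adjusted p = 0.00627), 0.51 at day 7 (SE 0.15, adjusted p = 0.0105) and 0.50 at day 14 (SE 0.15, adjusted p = 0.0168), that is, means 1.96-, 1.89- and 1.86-fold the uninjured mean. At day 21 the values were 1.73, 1.14, 1.15, 1.35 and 1.82 FPKM (0.36, adjusted p = 0.190). After quantile normalization none of the 3 calls held (adjusted p = 0.0604, 0.0639 and 0.0722), and leaving out no injury replicate 3 or 5 or day 14 replicate 5 ended the call at day 14 (up to 0.0555).

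Scd1 (chr19:44394451-44407709, - strand) encodes stearoyl-CoA desaturase 1, which makes monounsaturated fatty acids. It was 1.63, 3.10, 1.83, 1.76 and 2.26 FPKM without injury and 2.66, 2.19, 3.38, 2.97 and 5.66 FPKM at day 3. At day 7 Scd1 was 2.64 to 48.8 FPKM (median 27.2), from 445 to 6334 reads, and at day 14 it was 3.50 to 10.2 FPKM (median 6.47). At day 7, 5 of the 6 muscles lay above every uninjured muscle, and at day 14 and day 21 all muscles did, with 5.85, 4.49, 3.79, 6.14 and 7.17 FPKM at day 21. Scd1 had the smallest adjusted p of the 9 genes at day 7, at a mean 11.4-fold that without injury (log2 fold change 2.55, SE 0.44, adjusted p = 2.64e-04). It was 3.17-fold at day 14 (1.25, SE 0.44, adjusted p = 0.0447) and 2.59-fold at day 21 (1.05, SE 0.46, adjusted p = 0.202). The call at day 14 was lost under 4 alternatives (adjusted p up to 0.105) and when any 1 of 13 libraries was left out: each uninjured one, day 3 replicate 1 or 3, day 14 replicate 1, 2, 3 or 4, or day 21 replicate 1 or 2 (up to 0.0963). At day 21 Scd1 was called with only these 2 groups in the fit (adjusted p = 0.00525) and with sample quality weights (0.0297).

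Fabp4 (chr3:10204088-10208576, - strand) encodes the fatty acid binding protein of adipocytes, capillary endothelium and macrophages, and was by far the most abundant of the 10 genes before injury. It was 103, 64.0, 91.3, 77.9 and 53.9 FPKM without injury and 64.8, 58.8, 47.3, 52.1 and 114 FPKM at day 3. At day 7 Fabp4 was 41.6 to 109 FPKM (median 65.3), at day 14 it was 52.9 to 173 FPKM (median 94.1), and at day 21 it was 87.4, 78.4, 81.6, 80.7 and 123 FPKM. All groups overlapped, and no change passed: the 95% interval of the log2 fold change was -0.83 to 0.35 (day 3), -0.79 to 0.34 (day 7), -0.29 to 0.84 (day 14) and -0.37 to 0.82 (day 21). The sign of Fabp4 at day 3 and day 7 depended on the scaling: rescaling to a common sum turned -0.24 into 0.57 for day 3 (adjusted p = 0.0387) and -0.23 into 0.49 for day 7 (0.0668), and it raised 0.27 to 0.75 for day 14 (0.0271). The annotated length of Fabp4 is that of its whole span of 4489 bases, introns included.

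**Figure D2:**
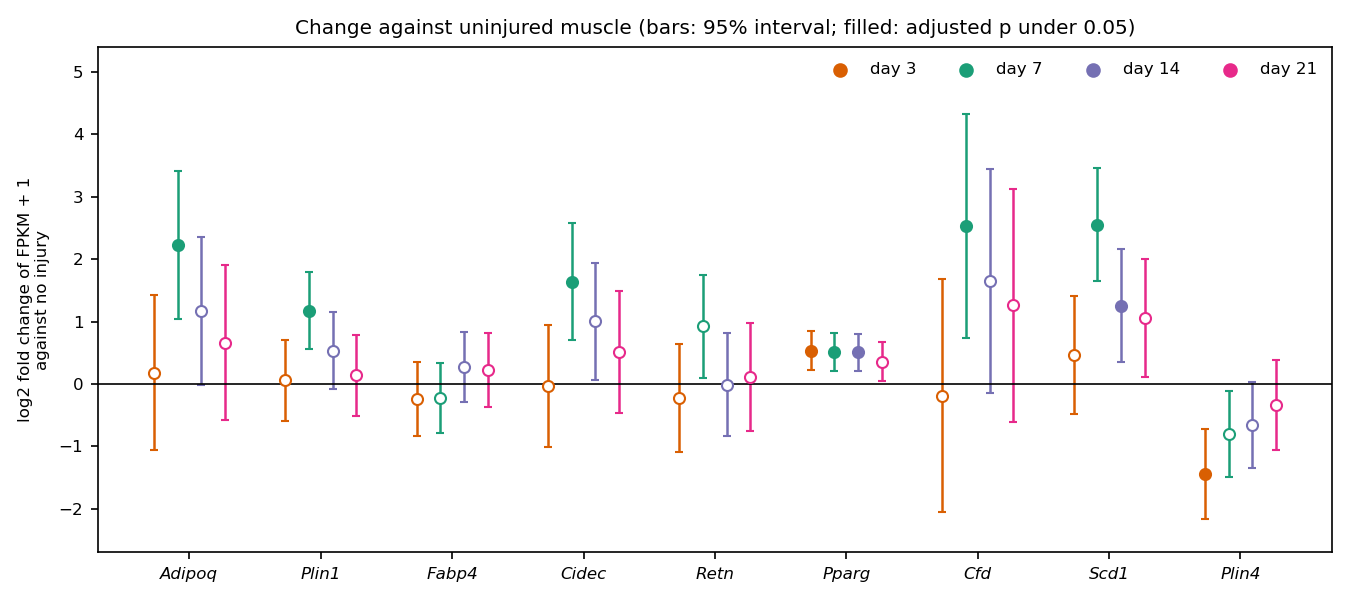
Log2 fold change of FPKM + 1 against uninjured muscle for the 9 genes tested, at 4 times after VML (points are fitted changes, bars the 95% interval, filled points passed at an adjusted p of 0.05). Adipoq, Plin1, Cidec, Cfd and Scd1 have their largest change at day 7, but in this fit day 7 did not pass against day 3 or day 14. Pparg is nearly level from day 3 to day 14, and Plin4 is lowest at day 3.

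Times after injury were compared with each other as well. Between day 3 and day 7, limma called 0 of the 9 genes, beside 0.0478% of all genes in either direction, although 6 had an unadjusted p under 0.05; voom also called 0. The log2 fold changes from day 3 to day 7 were 2.05 for Adipoq (adjusted p = 0.0831), 1.11 for Plin1 (0.0762), 1.67 for Cidec (0.0768), 1.15 for Retn (0.145), 2.72 for Cfd (0.111) and 2.09 for Scd1 (0.0614). Without day 7 replicate 5, these 6 genes were called higher at day 7 than at day 3, beside 2.17% of all genes called higher and 10.1% lower in the same fit, with log2 fold changes of 2.43 for Adipoq, 1.32 for Plin1, 1.98 for Cidec, 1.39 for Retn, 3.22 for Cfd and 2.56 for Scd1. Leaving out day 3 replicate 5 alone, or day 7 replicate 2 alone, gave 1 call, Scd1, beside 0.560% and 0.0205% of all genes called higher. Between day 7 and day 14, limma called 0 of the 9, beside 0.335% of all genes, with 3 at an unadjusted p under 0.05 and 0 by voom, and without day 7 replicate 5 Scd1 was lower at day 14 (-1.76, adjusted p = 0.0223 with day 3 replicate 5 left out too, beside 0.116% of all genes called lower). Between day 14 and day 21 limma called 0 of the 9, none with an unadjusted p under 0.05, and 0.0% of all genes, of which 909 had an unadjusted p under 0.05; voom called 0 as well. Of the times further apart, limma called 0 of the 9 genes between day 3 and day 14, beside 18.7% of all genes, and 0 between day 7 and day 21, beside 2.25%, with 3 and 4 of the 9 at an unadjusted p under 0.05 and 0 by voom in either. Between day 3 and day 21 it called 1, Plin4, which was higher at day 21 (log2 fold change 1.11, SE 0.35, adjusted p = 0.0213), beside 25.5% of all genes. This call was lost with the common sum (0.55, adjusted p = 0.106), with a replicate block by letter (0.90) and without day 3 replicate 3 or 4 or day 21 replicate 5 (adjusted p up to 0.0702). When the 5 groups were ordered by their mean level for each of the 9 genes, 0 of the 36 pairs of neighbours differed at an adjusted p of 0.05. For Adipoq, Plin1, Cidec, Cfd and Scd1, the mean was highest at day 7 and next highest at day 14.

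Muscles of 1 group differed widely, and they differed together. At day 7, replicate 3 had the highest level of 5 of the 10 genes (Adipoq, Plin1, Cidec, Retn and Cfd), and replicates 2 and 5 were each among the 2 lowest for 8 of the 10. The coefficient of variation over the 6 muscles at day 7 was 87.4% for Adipoq, 79.5% for Plin1, 83.5% for Cidec, 103% for Cfd and 71.8% for Scd1, against 34.7% for Fabp4 and 25% for Pparg. The group mean was therefore subtracted from each value, and the remaining differences between muscles were compared with those of Adipoq in all 27 muscles (9 relations, two-sided, 100000 permutations within groups, adjusted over the 9). Cidec followed Adipoq most closely (r = 0.94, rho = 0.92, adjusted permutation p = 4.5e-05 for both). Cfd had r = 0.88 and rho = 0.83, Plin1 had r = 0.87 and rho = 0.79, Retn had r = 0.82 and rho = 0.79, Lep had r = 0.81 and rho = 0.82, and Scd1 had r = 0.73 and rho = 0.70. Of these 5, Scd1 had the largest permutation p for r, 0.00492 after adjustment and 0.00328 before it. Without the 2 muscles farthest from the median of Adipoq, r was 0.90 for Cidec, 0.83 for Cfd, 0.80 for Plin1, 0.74 for Retn, 0.73 for Lep and 0.57 for Scd1. The remaining 3 genes showed no such relation, with r = 0.25 and rho = 0.21 for Pparg (adjusted permutation p = 0.285 for r), r = 0.28 and rho = 0.16 for Plin4 (0.429) and r = 0.11 and rho = 0.12 for Fabp4 (0.638). Levels of 1 library share its depth and scaling, and library day 3 replicate 2, in which Adipoq, Plin1, Cidec, Lep and Retn were all at 0, held 0.332 FPKM of Cfd and 58.8 FPKM of Fabp4.

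**Figure D3:**
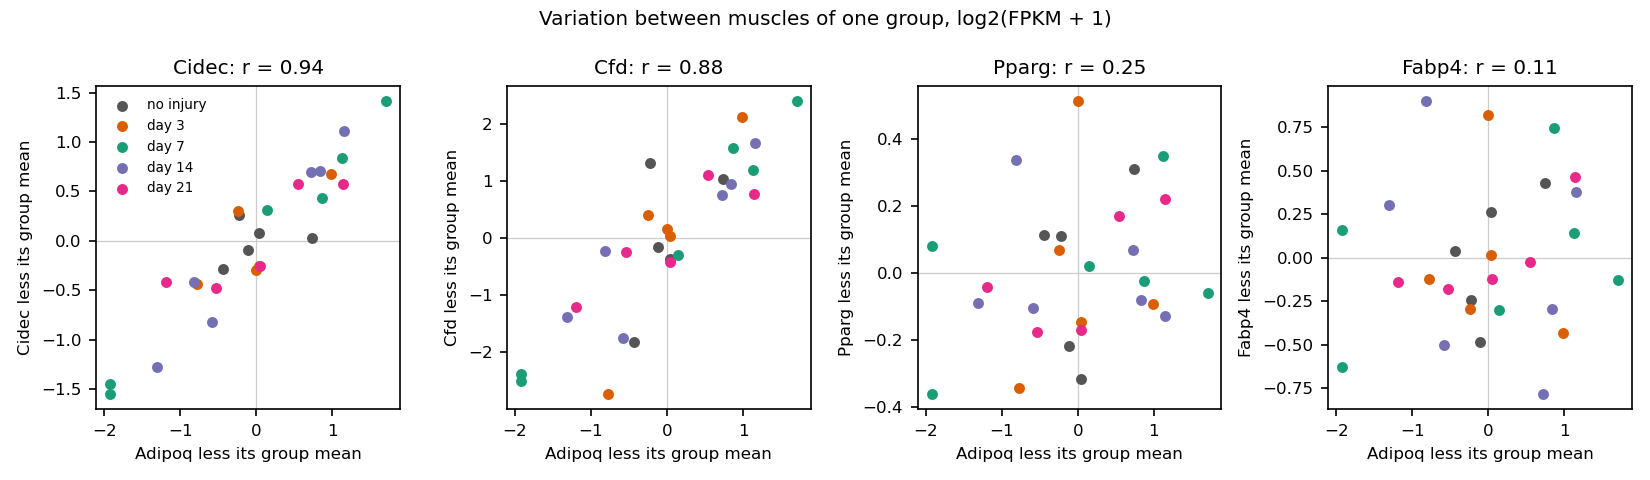
Difference of each muscle from its group mean in log2(FPKM + 1), for Adipoq (horizontal axis) and Cidec, Cfd, Pparg and Fabp4 (vertical axes), in 27 muscles coloured by group. Cidec (r = 0.94) and Cfd (r = 0.88) rise with Adipoq, while Pparg (r = 0.25) and Fabp4 (r = 0.11) scatter.

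**Figure D4:**
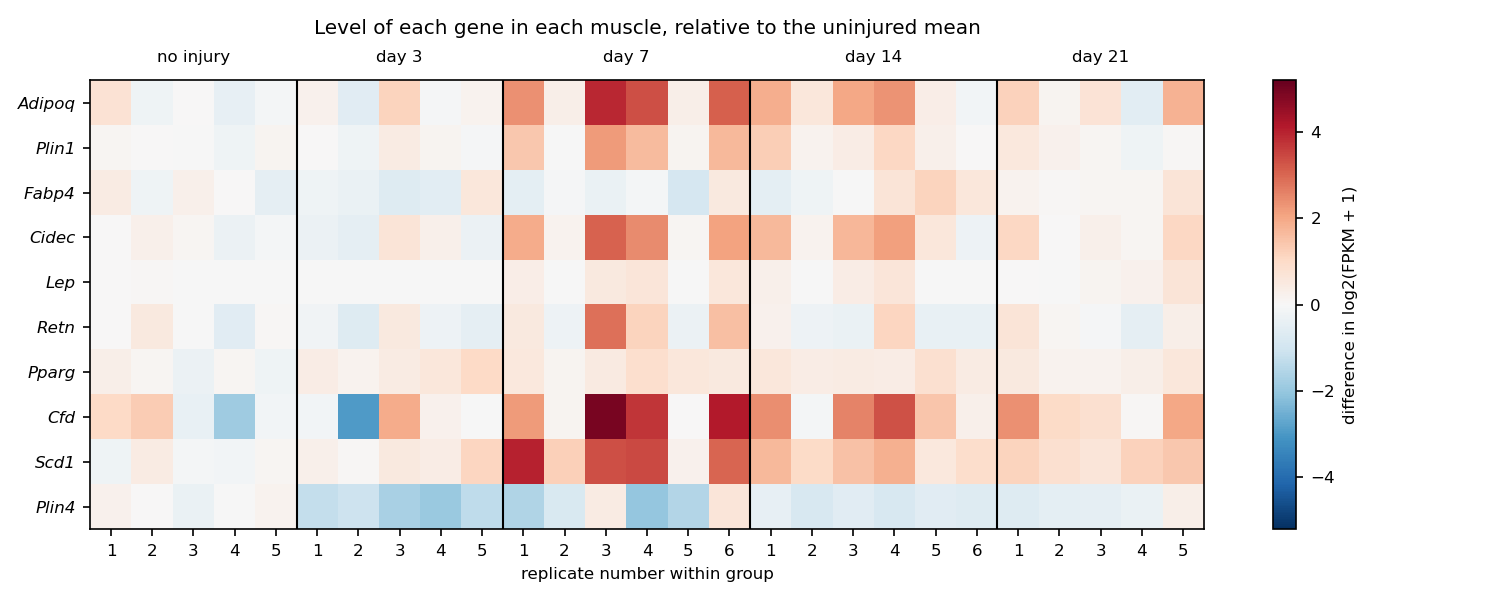
Difference of each of the 10 genes in each muscle from the uninjured mean, in log2(FPKM + 1), with muscles ordered by group and replicate number. At day 7, replicates 1, 3, 4 and 6 are high in Adipoq, Plin1, Cidec, Cfd and Scd1, and replicates 2 and 5 are near the uninjured level in Adipoq, Plin1, Cidec and Cfd; Plin4 is low in all 5 muscles at day 3.

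The genes most like these were sought among all genes tested. Over the 27 muscles, the 10 genes outside the list whose log2(FPKM + 1) correlated best with the mean of Adipoq, Plin1 and Cidec were Mrap (r = 0.93), Cdo1 (0.93), Cyp2f2 (0.88), Nnat (0.86), Pck1 (0.85), Hp (0.83), Wfdc21 (0.81), Fasn (0.79), Slc7a10 (0.79) and Apoc1 (0.75). In the same ranking of 14630 genes, Cfd was at place 6, Scd1 at place 8 and Retn at place 10, while Pparg was at place 752, Plin4 at 4802 and Fabp4 at 7051. At day 7, 9 of these 10 genes were higher than without injury (adjusted p from 1.53e-04 for Fasn to 0.0221 for Slc7a10), and Pck1 did not pass (log2 fold change 0.39, adjusted p = 0.215); with voom Mrap, Cdo1, Nnat and Slc7a10 did not pass either. Hp, which encodes haptoglobin, had the largest change, from a mean of 1.61 to 28.7 FPKM (log2 fold change 3.19), and Wfdc21 was listed at 0 in all 5 uninjured muscles and had a mean of 3.81 FPKM at day 7. As these genes were chosen for their likeness to genes that rose at day 7, their calls there are a description.

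The other genes of the pathways are given as counts, to be read against the shares of all genes called higher and lower, 23.4% and 19.8% (day 3), 15% and 14.4% (day 7), 9.02% and 11.3% (day 14), and 1.74% and 1.69% (day 21). The counts depend on the settings. Under the alternatives that kept all libraries, 34 counts of called genes in these lists moved and 226 stayed equal or near. With the common sum far fewer of all genes were called lower, as given above. Of 14 adipogenic transcription factors and inhibitors, 13 were tested; 2 were higher and 5 lower (day 3), 3 and 3 (day 7), 3 and 2 (day 14), and 1 and 0 (day 21). Cebpa, the C/EBP factor of late adipocyte formation that myeloid cells also express, rose most (log2 fold change 2.83 at day 3, SE 0.32, adjusted p = 5.63e-07), followed by Dlk1, an inhibitor of adipocyte formation (2.14 at day 7, adjusted p = 0.0107, and 0.0944 with voom). Mlxipl, which encodes the glucose-responsive factor ChREBP, and Klf15 fell most (-1.35 and -1.31 at day 3), Klf15 without passing once FPKM was rescaled to a common sum (adjusted p = 0.0797). Of 13 genes of fatty acid and triacylglycerol synthesis, 4 were higher and 5 lower (day 3), 3 and 3 (day 7), 0 and 4 (day 14), and 0 and 1 (day 21). Fasn, fatty acid synthase, rose by 1.22 at day 7 (SE 0.20, adjusted p = 1.53e-04) and Scd2, a paralog of Scd1, by 1.10. Me1, malic enzyme, and Lpin1, a phosphatidate phosphatase, were the most lowered, at -1.52 at day 3 and -1.43 at day 14, and Me1 did not pass with the common sum (adjusted p = 0.0871). The median log2 fold change of this list was -0.020, 0.18, -0.095 and -0.13 at the 4 times.

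Of 13 genes of lipolysis, fatty acid uptake and droplet coats, 3 were higher and 5 lower (day 3), 1 and 4 (day 7), 1 and 4 (day 14), and 0 and 3 (day 21). Fabp5, a fatty acid binding protein of many cell types including macrophages, rose by 2.88 at day 3 (SE 0.48, adjusted p = 4.87e-05), and Angptl4, an inhibitor of lipoprotein lipase, by 1.93. Plin5, the perilipin of oxidative muscle, fell most (-1.83 at day 3, SE 0.28, adjusted p = 1.75e-05), and was 7.12 to 18.4 FPKM without injury and 1.51 to 3.95 FPKM at day 3. Lpl, lipoprotein lipase, fell too (-1.27 at day 3, adjusted p = 4.24e-04). Of 12 other genes of adipocytes, 10 were tested; 0 were higher and 3 lower (day 3), 1 and 2 (day 7), 2 and 1 (day 14), and 0 and 0 (day 21), where limma gave 4 an unadjusted p under 0.05 and voom called 0. Nnat rose at day 7 (1.53, adjusted p = 0.00961, and 0.0680 with voom) and Thrsp, a regulator of fat synthesis, at day 14 (1.45, adjusted p = 0.0353), a call lost without a filter, with either replicate block (adjusted p up to 0.0843) and without any 1 of 7 libraries, each uninjured one and day 14 replicates 4 and 5 (up to 0.0747), while Slc2a4, the insulin-responsive glucose transporter of muscle and fat, and the glycerol channel gene Aqp7 fell at day 3 (-1.56 and -1.24), Aqp7 without passing once FPKM was rescaled to a common sum (adjusted p = 0.0897). Of the 5 genes for adipokine receptors, 4 were tested, of which 1 was higher and 2 lower (day 3, day 7 and day 14), and 0 and 1 (day 21). Cap1, a receptor of resistin that also acts on actin, was higher at day 3 (1.97, adjusted p = 6.34e-06) and the adiponectin receptor genes Adipor1 (-0.82 at day 14, adjusted p = 0.00711) and Adipor2 (-0.77 at day 3, adjusted p = 3.41e-04) were lower, although with FPKM rescaled to a common sum Adipor2 was at 0.0031 and Adipor1 at -0.35 without passing.

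Genes of other cells moved in the same muscles. Counts of markers called are to be read against the shares of all genes. Called higher were 23.4% (day 3), 15% (day 7), 9.02% (day 14) and 1.74% (day 21) of all genes. Called lower were 19.8%, 14.4%, 11.3% and 1.69% at the same times. The 7 macrophage markers (Adgre1, Cd68, Csf1r, Mrc1, Cd14, Itgam and Lyz2) summed to 17.1 to 25.3 FPKM without injury, then 317 to 2151 (day 3), 47.6 to 2021 (day 7), 44.4 to 105 (day 14) and 31.6 to 58.2 FPKM (day 21), and 7, 6, 2 and 0 of them passed as higher at these times. At day 7, replicate 5 had the highest macrophage sum (2021 FPKM) and a low Adipoq of 0.873 FPKM, and replicate 2, at 0.871 FPKM of Adipoq, had 258 FPKM. The 7 endothelial markers (Pecam1, Cdh5, Kdr, Tie1, Cldn5, Emcn and Egfl7) summed to 118 to 179 FPKM without injury, then 82.9 to 198 (day 3), 57.5 to 141 (day 7), 97.7 to 260.2 (day 14) and 128 to 193 FPKM (day 21); 2 of the 7, Kdr and Cldn5, were lower at day 3 and day 7, and Kdr at day 14 and day 21. The 7 markers of fibro-adipogenic progenitors (Pdgfra, Ly6a, Dcn, Dpp4, Pi16, Cd34 and Osr1; 6 tested) summed to 99.1 to 119 FPKM without injury, then 134 to 240.3 (day 3), 103 to 213 (day 7), 92.7 to 176 (day 14) and 85.3 to 128 FPKM (day 21), and 3, 3, 3 and 1 of them passed as higher. The part of these cells in the levels of the 10 genes was not tested. Of 6 markers of brown fat, Ucp1 was at 0 in 26 of the 27 muscles and at 0.184 FPKM in 1 muscle at day 21. Group means of Cidea were 1.06 to 1.98 FPKM, of Dio2 0.449 to 1.28 FPKM and of Elovl3 0.349 to 0.396 FPKM, and none of these 3 genes passed against no injury (smallest adjusted p 0.0854, for Cidea at day 14). Cox7a1 and Cox8b, mitochondrial genes that muscle fibres express too, had means of 1830.3 and 3532 FPKM without injury and were lower at day 3 (561 and 1088 FPKM) and day 7 (703 and 1560.2 FPKM).

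**Figure D5:**
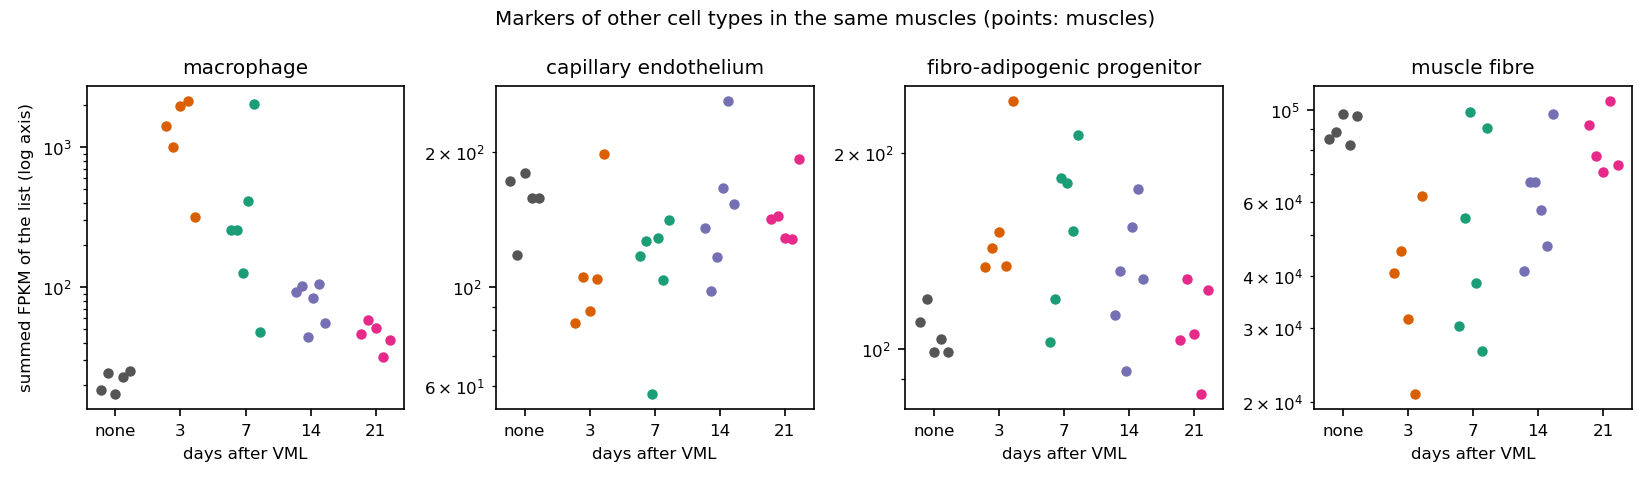
Summed FPKM (log axes) of marker genes of macrophages, capillary endothelium, fibro-adipogenic progenitors and muscle fibres in each of the 27 muscles, without injury (none) and at 3, 7, 14 and 21 days after VML. The macrophage sum is highest at day 3 (317 to 2151 FPKM), and 1 muscle at day 7 reaches 2021 FPKM.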

How the data were processed

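The submitters' notes name HISAT2 2.0.5 and featureCounts 1.5.0-p3. The authors deposited 1 table of FPKM per gene and sample, from poly-T selected, non-directional libraries; how its library totals were set is not given in the sources used here. FPKM times gene length, multiplied by a total recovered for each library from its lowest genes, gave whole reads (within 0.02 of a read, or 1e-05 of the value) for 100% of the values, which were used for read numbers and voom. Coordinates were compared with GENCODE M21 on GRCm38. Groups and replicate numbers came from the sample titles. FPKM was transformed to log2(FPKM + 1), a scale that understates the change of low genes. Genes reaching an FPKM of 0.5 in 5 or more samples (14630) entered limma 3.58.1 (R 4.3.3), all 27 samples in one fit with a mean per group and a variance trend, with Benjamini-Hochberg adjustment per comparison at 0.05. The fit was tested on simulated data. Relations and Lep were tested by permutation (scipy 1.17.1). The genes named are the 10 genes, the 10 most alike, and in each list the 2 most raised and the 2 most lowered genes among those called. The members and lists were chosen with earlier results of these data known. Alternatives changed the pseudocount, filter, scaling, variance trend, block, samples fitted and weights; leaving out day 3 replicate 5 with day 7 replicate 5, quality weights, and the comparisons between day 3 and day 14, day 3 and day 21, and day 7 and day 21 were chosen after seeing the data. In the lists, Trarg1 was matched by its older symbol Tusc5. Limits of 3 reads and all intervals of reads cover counting error only.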

Additional observations from a re-analysis of the deposited data

Results flagged for a closer look

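Values were compared on the scale of log2(FPKM + 1). In 49 groups of 5 or 6 muscles (10 genes, less Lep at day 3), 1 value stood far from the others of its group. Fabp4 in day 21 replicate 5 was 123 FPKM, the highest of that group. On this log2 scale, its gap to the next value was 0.76 of the range of the group, against a critical value of 0.71. Ratios on FPKM itself differ and are not given here. Chance flags about 1 in 20 groups. The same muscle had the highest level of 7 of the 10 genes at day 21 (Adipoq, Fabp4, Cidec, Lep, Pparg, Scd1 and Plin4), and over all genes it lay nearer to the mean of day 14 than to that of day 21.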

How the results depend on the processing

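Of the 9 genes tested against no injury, 6 were called at day 7, beside 15% of all genes called higher. Voom called 2, beside 14.2%, and every other alternative 5 to 7. The share of all genes called changed with the setting as well. With the common sum the share called higher at day 7 was far larger, as given above. A count with no share of all genes beside it is not a result about these genes. This holds below for the counts without a filter, after quantile normalization, with only 2 groups, with the common sum and with quality weights. At day 3, quantile normalization left 1 call, Plin4, of 2. At day 14, 1 was called without a filter, 0 after quantile normalization and 4 with sample quality weights, where the fit as reported called 2. At day 21, 1 was called with only these 2 groups in the fit and 1 with quality weights, against 0. Between day 3 and day 7, 4 were called with quality weights, against 0 beside 0.0478% of all genes in either direction. Without day 3 replicate 5 and day 7 replicate 5, 6 were called there, all higher at day 7. The shares of all genes were 3.53% higher and 11.9% lower. Without these libraries 1 was called between day 7 and day 14, beside 0.191% of all genes in either direction, against 0 beside 0.335%. Against 0 calls between day 3 and day 14, 2 were made with only these 2 groups in the fit, 3 with quality weights and 2 without both libraries; against 1 between day 3 and day 21, 0 with the block by letter and 2 with quality weights; and against 0 between day 7 and day 21, 3 with the common sum, 2 with the block by number, 1 with quality weights and 2 without both libraries. Leaving out each library in turn gave 0 to 3 calls at day 14, 0 to 6 between day 3 and day 7, 0 to 1 between day 7 and day 14, 0 to 1 between day 3 and day 14 and between day 3 and day 21, and 0 to 2 between day 7 and day 21. The share of all genes moved as well. Between day 3 and day 7 it was 12.2% in either direction without day 7 replicate 5, which gave the 6 calls, against 0.0478%. Libraries of different groups with the same replicate number were on average little more alike than others. The mean correlation of their deviations from group means was 0.0217 over 51 pairs, against -0.0033 for other pairs. Over 49 pairs with the same letter it was 0.0296, against -0.0047. Single pairs ran from -0.52 to 0.57, with 15 over 0.1 by number and by letter. Only pairs from different groups were compared, so 2 muscles of 1 mouse within a group could not be seen. A replicate block by number left 1 call at day 14, beside 25.2% of all genes in either direction, and a block by letter also 1, beside 25.3%. Either block brought Plin4 at day 7 past the threshold (-0.95, adjusted p = 0.0310, by number and -0.90, adjusted p = 0.0393, by letter). The sign changed in differences that had not passed: with quantile normalization Adipoq -0.025 and Plin1 -0.12 at day 3 and Fabp4 0.055 at day 7; with a common sum Fabp4 0.57 at day 3 and 0.49 at day 7, Cidec 0.22, Retn 0.047 and Cfd 0.52 at day 3 and Retn 0.18 at day 14; with quality weights Cidec 0.088 and Cfd 0.13 at day 3 and Retn 0.044 at day 14; with the block by letter Retn 0.010 at day 14. Without day 3 replicate 5 and day 7 replicate 5, Cidec at day 3 was 0.043 and the r of Adipoq with Fabp4 -0.034. With the common sum Adipor2 at day 3, called lower, moved to 0.0031 (adjusted p = 0.993). Without 1 library, the log2 fold change at day 3 ran from -0.065 to 0.37 for Adipoq, -0.030 to 0.13 for Plin1, -0.20 to 0.077 for Cidec and -0.72 to 0.50 for Cfd, and that of Retn at day 14 from -0.23 to 0.12 and at day 21 from -0.043 to 0.25. The causes of these moves were not tested. Of the other values of single genes of the 10 under alternatives other than leaving out 1 library, 622 kept direction and side of the threshold, 14 lost their call and 22 gained one. Adipoq, Plin1, Cidec, Lep and Retn had 0 reads in day 3 replicate 2, where the depth allows levels up to the limit of 3 reads.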
